A study of Mus musculus with 33 samples.

Results

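The regions described here were bound by DLX1, DLX2 or DLX5 in mouse ganglionic eminences at e11.5, where e stands for embryonic day, and had no DLX peak at e13.5 or e16.5. Overlapping peaks of the 3 e11.5 lists were merged into 16127 regions on chromosomes 1 to 19 and X. Of these, 2416 overlapped no peak of any of the 6 later lists by even 1 bp, or 14.98% (95% Wilson interval 14.4 to 15.5), and they are called e11.5-only below. The other 13711 are called seen later. The 9 lists together merged into 47958 regions. The regions were chosen by the measured peak calls themselves, so the number of regions, the factors that bound them and the strength of their peaks are descriptions.

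DLX1, DLX2 and DLX5 are homeodomain transcription factors of the embryonic ventral forebrain, where they act in the production of GABAergic neurons. Homeodomain proteins bind short AT-rich motifs, and DLX proteins can occupy both promoters and distal enhancers. H3K4me3 marks promoters, H3K27ac marks active promoters and enhancers, H3K4me1 marks enhancers and the flanks of promoters, and H3K27me3 is the mark of Polycomb repression. Promoters that carry H3K4me3 and H3K27me3 together, without H3K27ac, are often described as poised.

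Ganglionic eminences are the swellings of the ventral telencephalon that the labels also call basal ganglia, with lateral, medial and caudal parts dissected together. All DLX ChIP-seq libraries came from wild-type CD1 embryos, with antibodies made in the authors' laboratory and 1 library per factor and age. The histone marks were mapped in wild-type and Dlx1/2-/- (knockout) CD1 tissue at e13.5, with 1 library per mark and genotype, and RNA was sequenced at e13.5 from 4 wild-type and 4 knockout libraries. The labels describe no conditional allele or Cre for the knockout. There is no histone or RNA measurement at e11.5, so each mark below was measured at a later age than the binding. The protocol text describes tissue of e13.5 for all DLX libraries, while the stage of each library is taken from its own label. No comparison of ChIP lists has a replicate, and every interval covers counting error only.

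The e13.5 RNA carried markers of the ganglionic eminence and also of the pallium, red blood cells, blood vessels and microglia. In the 4 wild-type libraries, the 9 markers of the ganglionic eminence summed to 461 to 493 CPM (counts scaled to a common total). The 4 pallial markers summed to 304 to 406 CPM, most of it Neurod6, and none of them was at 0. The 2 erythroid markers with counts summed to 1644 to 1886 CPM in wild type, most of it Hbb-y. The 2 endothelial markers summed to 57.2 to 85.5 CPM and the 2 microglial markers to 9.14 to 15.9 CPM. Dlx1 ranged from 116.5 to 129.3 CPM in the 4 wild-type libraries and from 21.3 to 26.3 CPM in the 4 knockout libraries. Dlx2 ranged from 15.3 to 28.8 CPM against 1.01 to 1.52 CPM, and Dlx5 from 4.62 to 6.63 CPM against 0.353 to 0.736 CPM. Dlx1 and Dlx2 are the genes of the knockout itself, so these ranges only check the genotype. The share of all genes whose wild-type and knockout ranges lie apart is not given here. In bulk tissue, fewer cells of a type and less RNA per cell cannot be told apart. The part of pallial, blood, vessel or microglial cells in the binding described below was not tested.

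DLX5 alone bound the most e11.5-only regions. This class held 1814 of the 2416 regions (75.1%), against 275 for DLX2 alone (11.4%) and 216 for DLX1 alone (8.94%). With every list limited to the 2951 strongest peaks, the length of the shortest, DLX5 alone held 43.1% (41.2 to 45.001). Regions bound by 2 or 3 factors numbered 111 in all: 47 for DLX2 with DLX5, 45 for DLX1 with DLX5, 10 for DLX1 with DLX2 and 9 for all 3 factors. Together they made up 4.59% of the e11.5-only regions, and 11.9% with lists of equal length. Over all peak strengths and single factors together, regions with more than 1 factor more often had a later peak. Of the 10677 e11.5 regions with 1 factor, 21.6% (20.8 to 22.4) were e11.5-only, and of the 5450 with 2 or 3 factors, 2.04% (1.69 to 2.45). Of the 2022 regions with all 3 factors, 9 were e11.5-only, or 0.445% (0.234 to 0.844). The count and the share of 14.98% rest on the lists used. They were 6254 and 38.8% without the e16.5 lists, and 630 and 6.22% without the e11.5 DLX5 list. The share was 42.8% with lists of equal length and 1.19% with e11.5 peaks at a −log10 q of at least 10.

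**Figure D1:**
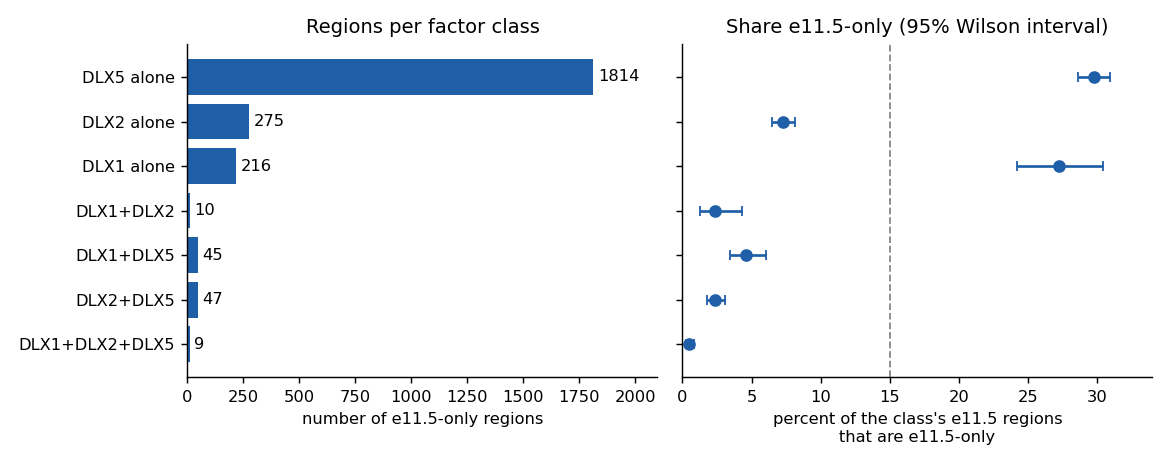
Number of e11.5-only regions in each factor class (left) and their percent of all e11.5 regions of the class with its 95% Wilson interval (right). The dashed line is the percent over all classes, 14.98%. DLX5 alone (29.7%) and DLX1 alone (27.2%) lie above the line, and DLX2 alone (7.27%) and every class of 2 or 3 factors lie below it.

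Single-factor sites differed by factor in how often a later peak overlapped them. Among e11.5 regions with DLX5 alone, 29.7% (28.6 to 30.9) were e11.5-only, and with DLX1 alone 27.2% (24.2 to 30.4), so these intervals overlap. With DLX2 alone the share was 7.27% (6.48 to 8.14). The later lists contributed unequally to this. A DLX2 peak at e13.5 covered 81.2% of the DLX2-alone regions and a DLX2 peak at e16.5 covered 85.9%. For DLX5-alone regions the same factor's list covered 3.53% at e13.5 and 53.5% at e16.5. The DLX5 list of e13.5 was the shortest, at 2951 peaks, against 11361 at e11.5 and 27370 at e16.5. The depth of these libraries is unknown, and its part in the split was not tested.

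The peaks of e11.5-only regions were weak. The fold enrichment is the authors' value for each peak. Its median over e11.5-only regions was 4.12, with an interquartile range from 3.80 to 4.75, against 4.79 in regions seen later. That contrast mixes factor classes. Within DLX5 alone the medians were 4.12 and 4.44, within DLX1 alone 3.84 and 4.08, and within DLX2 alone 3.77 and 4.48. With 2 or 3 factors they were 4.44 and 6.13. The highest e11.5-only fold was 11.4, and the highest among regions seen later was 99.9. Median width was 242 bp against 332 bp. The median −log10 q was 3.10 against 5.41. In each list the fold values up to 20 were whole multiples of 1 step (tolerance 0.05 of a step, with a constant offset in the DLX2 list of e13.5). The weakest e11.5 DLX5 peaks lay at 10 steps and the e11.5-only DLX5 peaks had a median of 13 steps. For DLX1 and DLX2 the weakest peaks lay at 13 steps and the e11.5-only medians at 16. The e11.5-only peaks thus lay 3 steps above the floor of their own lists at the median.

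The share without a later peak was lower at high folds than at low folds in each class, though not in every step between neighbouring bins. Over all e11.5 regions it was 32.1% below a fold of 3.5 and 0.974% at a fold of 8 and over. Among DLX5-alone regions it was 37.6% (34.5 to 40.8) and 12.9% (7.995 to 20.2) in these bins. Among DLX2-alone regions it was 14.8% below 3.5, 15.1% from 3.5 to 4, 0.551% from 6 to 8 and 1.12% at 8 and over. Among DLX1-alone regions it was 30.2% below 3.5 and 34.8% from 3.5 to 4, then 1 of 20 regions from 6 to 8 and 0 of 10 at 8 and over. No region with 2 or 3 factors at a fold of 8 and over was e11.5-only, 0 of 1427, with an upper Wilson bound of 0.268%.

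**Figure D2:**
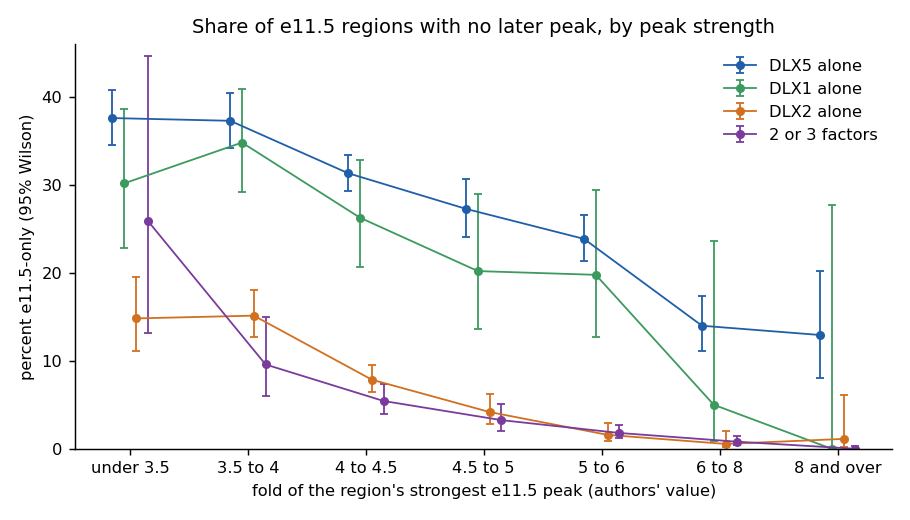
Percent of e11.5 regions with no later DLX peak (vertical axis, 95% Wilson intervals) by the fold of the region's strongest e11.5 peak (horizontal axis), for regions bound by 1 factor alone or by 2 or 3. The DLX5-alone line ends at 12.9% at a fold of 8 and over, and the line for 2 or 3 factors ends at 0 of 1427.

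The strongest sites of each factor are given with their positions in mm9, the build of the files. The highest DLX5 peak without a later peak was at chr15:85294552-85295040, with a fold of 11.4, and the next was at chr11:5025120-5025519, with a fold of 11.1. The first lay in a wild-type H3K4me1 peak of fold 6.41 and carried no other wild-type mark, and the second carried none of the 4 marks. The highest DLX2 peak was at chr2:173406546-173406998, with a fold of 8.49, and carried a wild-type H3K27me3 peak of fold 4.33. The highest DLX1 peak was at chr8:73905494-73905789, with a fold of 6.23, inside an H3K4me3 peak of fold 13.3 and 158 bp from a later DLX peak. Regions with more than 1 factor were ranked by the fold of their weakest factor. By this rank the highest of the regions with all 3 factors was at chr17:13498830-13499111, where the folds were 4.31 for DLX1, 4.95 for DLX2 and 4.75 for DLX5. It lay 198715 bp from the nearest later DLX peak, in a wild-type H3K27me3 peak of fold 5.33.

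Of the e11.5-only regions, 624 (25.8%) lay within 500 bp of a later peak without overlapping it, and 1027 lay more than 10000 bp from any. The median gap was 6092 bp, with an interquartile range from 451 to 24425 bp. Just inside the rule, the regions at chr10:42304075-42304274 and chr12:81536124-81536440 abutted a later peak with a gap of 0 bp. Just outside it, chr10:98725225-98725438 and chr11:117515279-117515655 shared 2 bp with one. Only 135 of the 13711 regions seen later overlapped later peaks by 50 bp or less.

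Most e11.5-only regions lay in H3K4me3 of wild-type e13.5 tissue. A mark was counted where the region overlapped a peak with a −log10 q of at least 5, since the deposited histone lists carry no threshold of their own. H3K4me3 covered 1780 of 2416 regions, or 73.7% (71.9 to 75.4), where 43.0% of all 47958 DLX regions had it. H3K4me1 covered 62.8% (60.9 to 64.7) against 50.1% of all DLX regions, H3K27ac 46.7% (44.7 to 48.7) against 26.1%, and H3K27me3 39.7% (37.7 to 41.6) against 18.9%. These shares move with the histone threshold. With histone peaks at a −log10 q of at least 10, H3K4me1 covered 21.9% of the e11.5-only regions, H3K27ac 21.6% and H3K27me3 13.49%. With all deposited histone peaks they covered 77.6%, 89.6% and 79.9%. Of all DLX regions, 35.7% had none of the 4 marks, and of the e11.5-only regions 13.99% (12.7 to 15.4). The regions seen later were also marked more often than all DLX regions, so a high share of marks is common to e11.5 sites.

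Set against the regions seen later, the difference in most marks turned once factor class was held equal. Without adjustment, H3K4me3 was 5.10 points more frequent at e11.5-only regions (Newcombe interval 3.15 to 6.99) and H3K27me3 was 7.29 points more frequent (5.20 to 9.41). When regions seen later were weighted to the same factor class and fold group (4 groups cut at the quartiles of each class), H3K4me3 was less frequent, at 73.7% against 84.2%, a difference of −10.5 points (−12.4 to −8.68). H3K27ac was at 46.7% against 63.9%, a difference of −17.2 points (−19.5 to −14.9), where the unadjusted difference was −0.99 (−3.14 to 1.17). H3K4me1 was at 62.8% against 58.0%, or 4.80 points more (2.53 to 7.08). The H3K27me3 difference was −2.74 points (−5.04 to −0.44). With factor class alone held equal, the differences were close to these. They were −9.50 points for H3K4me3, −16.9 for H3K27ac, 5.50 for H3K4me1 and −2.75 for H3K27me3. The differences at equal class and fold rest on the e16.5 lists. Without those lists they were 4.59 points for H3K4me3, 3.78 for H3K27ac, −5.85 for H3K4me1 and 6.48 for H3K27me3. With every list limited to the 2951 strongest peaks, the length of the shortest, they were 4.53, 4.25, −1.63 and 7.49 in the same order.

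**Figure D3:**
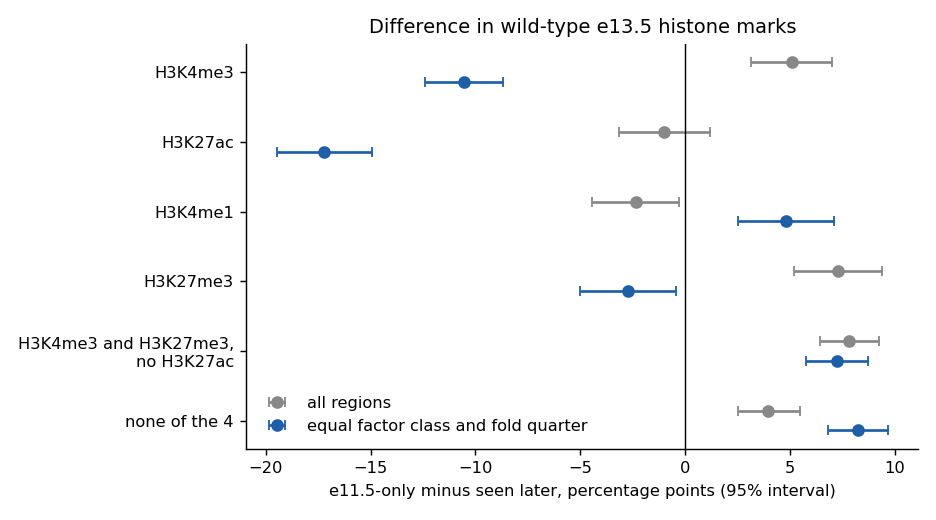
Difference in the share of regions with each wild-type e13.5 mark, e11.5-only minus seen later, in percentage points with 95% intervals, over all regions (grey) and at equal factor class and fold group (blue). The grey and blue points of H3K4me3 lie on opposite sides of 0, at 5.10 and −10.5, and those of H3K4me3 with H3K27me3 and no H3K27ac lie at 7.79 and 7.24.

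Among several combinations of marks that were counted, the next was more frequent at e11.5-only regions with and without this adjustment. It was also more frequent without the e16.5 lists. The same held for the share with none of the 4 marks, given below. H3K4me3 together with H3K27me3 and without H3K27ac covered 319 of them, or 13.2% (11.9 to 14.6), against 5.41% of regions seen later and 4.96% of all DLX regions. At equal factor class and fold the values were 13.2% and 5.96%, a difference of 7.24 points (5.76 to 8.71). It was 3.67 points (2.58 to 4.75) without the e16.5 lists and 2.06 (0.304 to 3.82) with lists of equal length. The difference was 8.39 points (6.70 to 10.2) within DLX5 alone and 7.71 points (4.19 to 12.2) within DLX2 alone. Within DLX1 alone it was 2.80 points, with an interval from −1.24 to 7.82 that spans 0. Whether or not H3K27ac was present, H3K4me3 with H3K27me3 was 7.38 points more frequent without adjustment (5.32 to 9.48). At equal class and fold it was less frequent, at 38.0% against 41.7%, a difference of −3.76 points (−6.04 to −1.48). With H3K27ac required as well, the difference at equal class and fold was −11.0 points (−13.1 to −8.92). The share with none of the 4 marks was higher at e11.5-only regions, at 13.99% against 5.75% at equal class and fold. That is a difference of 8.24 points (6.81 to 9.67). This difference was 3.95 points without adjustment, 2.72 without the e16.5 lists, 0.845 with all deposited histone peaks and −0.156 with lists of equal length, and 41.7 with e11.5 peaks at a −log10 q of at least 10. Within DLX2 alone it was 1.06 points, with an interval from −3.82 to 6.61 that spans 0.

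The 3 factors differed in the marks at their e11.5-only sites. DLX5-alone sites had H3K4me3 in 78.4% and H3K27ac in 49.7%, and DLX1-alone sites in 70.8% and 52.3%. DLX2-alone sites had H3K4me3 in 46.9% and H3K27ac in 55 of 275. DLX5 exceeded DLX2 by 31.5 points in H3K4me3 (25.3 to 37.6) and by 29.7 points in H3K27ac (24.1 to 34.6). The same order of DLX5 over DLX2 was wider among regions seen later, at 51.8 points for H3K4me3 and 53.9 points for H3K27ac. H3K4me1 was the most frequent mark of the DLX2-alone sites, at 69.1% (63.4 to 74.3).

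The direction against regions seen later also differed between DLX5 and DLX2. Within DLX5 alone, H3K4me3 was at 78.4% of e11.5-only regions against 89.8% of regions seen later, a difference of −11.3 points (−13.47 to −9.27). Within DLX2 alone it was at 46.9% against 38.0%, a difference of 8.95 points (2.91 to 15.1). H3K27me3 differed by −5.33 points (−8.03 to −2.60) within DLX5 alone and by 10.8 points (6.06 to 16.3) within DLX2 alone.

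The age of the later peak divides the DLX5-alone regions further. H3K4me3 covered 78.4% of the 1814 e11.5-only regions, 84.5% of the 1734 with a peak of any DLX factor at e13.5 and 93.4% of the 2551 with a peak at e16.5 and none at e13.5. H3K27ac followed the same order, at 49.7%, 63.6% and 75.2%. The e11.5-only regions thus lay 6.04 points (3.49 to 8.58) below the e13.5 group in H3K4me3 and 14.9 points (12.8 to 17.1) below the e16.5 group. H3K4me3 with H3K27me3 and without H3K27ac covered 14.1% of e11.5-only regions, 5.13% of the e13.5 group and 6.04% of the e16.5 group. Within DLX2 alone, H3K4me3 covered 46.9% of e11.5-only regions, more than the 35.3% of the e13.5 group (difference 11.6 points, 5.58 to 17.8) and less than the 58.5% of the e16.5 group (−11.6 points, −19.0 to −3.93).

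**Figure D4:**
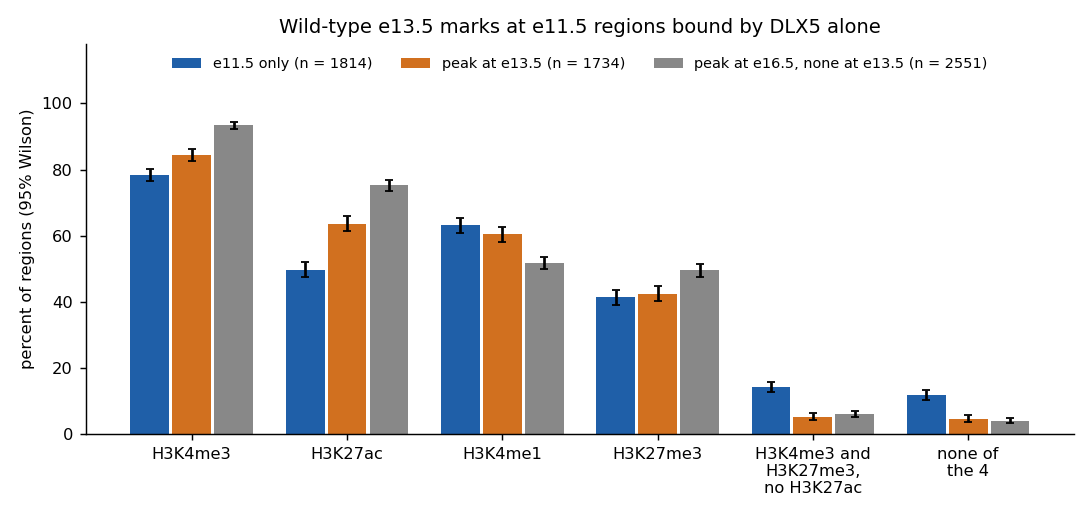
Percent of e11.5 regions bound by DLX5 alone that carry each wild-type e13.5 mark or combination, with 95% Wilson intervals, for regions with no later peak, with a DLX peak at e13.5, and with a DLX peak at e16.5 and none at e13.5. H3K4me3 stands at 78.4%, 84.5% and 93.4% in these groups, and H3K4me3 with H3K27me3 and no H3K27ac at 14.1%, 5.13% and 6.04%.

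The strongest e11.5-only sites were the least marked. Among DLX5-alone e11.5-only regions, H3K4me3 covered 83.2% (78.9 to 86.8) below a fold of 3.5, 69.1% (63.1 to 74.5) at a fold of 5 to 6 and 2 of 15 at a fold of 8 and over. Among DLX5-alone regions seen later it stayed between 89.2% and 91.3% in every bin up to a fold of 8 and was at 72 of 101 above it. At a fold of 8 and over, 10 of the 15 e11.5-only DLX5 regions carried none of the 4 marks, against 25 of 101 seen later, a difference of 41.9 points (15.3 to 61.5). These 15 regions lay between 3147 and 94161 bp from a later peak. Besides the site at chr11:5025120-5025519, the unmarked ones included chr2:179196224-179196575 with a fold of 10.8, chr3:88551461-88551767 with 9.51, and chr9:19204777-19205065 and chr9:92830643-92830949, each with 9.19. These 4 were chosen after their values were seen.

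H3K4me3 and H3K27ac were most frequent within 500 bp of later peaks. H3K4me3 covered 181 of the 199 e11.5-only regions within 100 bp of a later peak (91.0%) and 400 of the 425 at 100 to 500 bp (94.1%). It covered 83.4% at 500 to 1000 bp, 64.2% at 1000 to 10000 bp and 66.1% (63.2 to 68.9) of the 1027 beyond 10000 bp. H3K27ac covered 75.9% within 100 bp and 33.3% beyond 10000 bp. H3K4me1 had another order, at 53.3% within 100 bp, 255 of 425 at 100 to 500 bp, 69.5% at 500 to 1000 bp, 69.7% at 1000 to 10000 bp and 60.8% beyond. The median fold was 4.01 within 100 bp and 4.12 in each of the farther groups.

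Of the 1780 e11.5-only regions in an H3K4me3 domain, 899 (50.5%, 48.2 to 52.8) lay in a domain that held a later DLX peak elsewhere, and 881 in a domain that held none. Counted by domain and not by region, 57.3% of all 23458 wild-type H3K4me3 domains (median width 2718 bp) held a later DLX peak. Per e11.5-only region, the domain had a median width of 6235 bp where it held a later peak and 3520 bp where it held none. H3K27ac covered 74.5% (71.6 to 77.3) of the e11.5-only regions in the first group and 50.2% (46.9 to 53.5) in the second. H3K27me3 covered 54.6% and 48.4%. H3K4me1 was less frequent in the first group, at 66.0% (62.8 to 69.0) against 74.5% (71.5 to 77.2). On a scale from 0 at the centre of the domain to 1 at its edge, the summits of DLX5-alone e11.5-only regions had a median position of 0.40, against 0.46 for those seen later.

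The e11.5-only region with the highest fold of each wild-type mark was bound by DLX5 alone. That class held 75.1% of the e11.5-only regions, with a median DLX5 fold of 4.12, so weak DLX5 peaks are common to these sites. The region at chr8:108692579-108692778 lay in the domain of highest H3K4me3, with a fold of 23.6 in wild type and 24.8 in knockout, and had a DLX5 fold of 3.49. The region at chr5:143578641-143578936 had the highest H3K27ac, at 10.5 in wild type and 10.0 in knockout, with a DLX5 fold of 4.12. It was followed by the region of DLX2 and DLX5 at chr1:59820281-59820728, at 9.21 and 8.67. The highest H3K4me1, with a fold of 7.96 in wild type and 8.04 in knockout, was shared by the DLX5 regions at chr8:123033195-123033394 and chr8:123062634-123062984. The highest H3K27me3 was at chr8:59790930-59791129, at 16.2 and 15.3, followed by the DLX2 region at chr11:96155923-96156125, at 16.1 and 14.5.

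Loss of Dlx1 and Dlx2 went with few called changes of marks at these sites. The authors' deposited comparison lists, for each mark, regions higher in wild type or in knockout. Regions with H3K27ac higher in wild type overlapped 1 of the 2416 e11.5-only regions (0.0414%), 159 of the 13711 regions seen later (1.16%) and 0.636% of all DLX regions. The difference of −1.12 points had an interval from −1.31 to −0.864. At equal factor class and fold the comparison was 0.0414% against 0.368%, a difference of −0.327 points (−0.486 to −0.167). Within DLX5 alone the counts were 1 of 1814 and 10 of 4285, and the interval of the difference, −0.379 to 0.0995, spans 0. The 1 region was at chr16:4420293-4420501, where the H3K27ac fold was 5.10 in wild type and 3.65 in knockout.

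H3K4me3 higher in wild type likewise overlapped 1 e11.5-only region against 139 seen later (background 0.528%), or 0.0414% against 0.336% at equal class and fold. H3K4me1 higher in wild type overlapped 8 against 272 (background 2.49%), or 0.331% against 0.764% at equal class and fold (difference −0.432, −0.720 to −0.145). The clearest H3K4me1 loss was at the DLX1 region chr2:157467473-157467682 by the authors' likelihood ratio, where a wild-type peak of fold 4.002 had no knockout peak at the threshold.

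H3K4me3 higher in knockout was the most frequent change, at 63 e11.5-only regions (2.61%, 2.04 to 3.32) against 283 seen later (2.06%, 1.84 to 2.32), with a background of 1.39%. At equal class and fold the values were 2.61% and 2.84%, a difference smaller than its counting error. The region at chr10:22003192-22003401, bound by DLX1, had a knockout H3K4me3 peak of fold 4.29 and no wild-type one at the threshold. H3K27ac higher in knockout overlapped 1 e11.5-only region against 26 (background 0.206%), and H3K4me1 higher in knockout 3 against 18 (background 0.154%). At the DLX5 region chr11:17226004-17226325 the H3K4me1 fold was 4.23 in wild type and 5.25 in knockout. H3K27me3 higher in knockout overlapped none, where 3 counts would be 0.124%, against 32 seen later (background 0.175%).

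H3K27me3 higher in wild type overlapped 18 e11.5-only regions against 66 seen later (background 0.346%). On the autosomes alone the counts were 7 of 2385 and 34 of 13573. Of the regions in that list, 91.3% were on the X chromosome, and the labels do not name the sexes of the embryos behind each ChIP library. Both named cases are on X, at chrX:91479817-91480190 and chrX:148803494-148803822. Neither had an H3K27me3 peak at the threshold of −log10 q of at least 5 in wild type or knockout. Both had H3K27ac and H3K4me3 peaks in both genotypes.

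**Figure D5:**
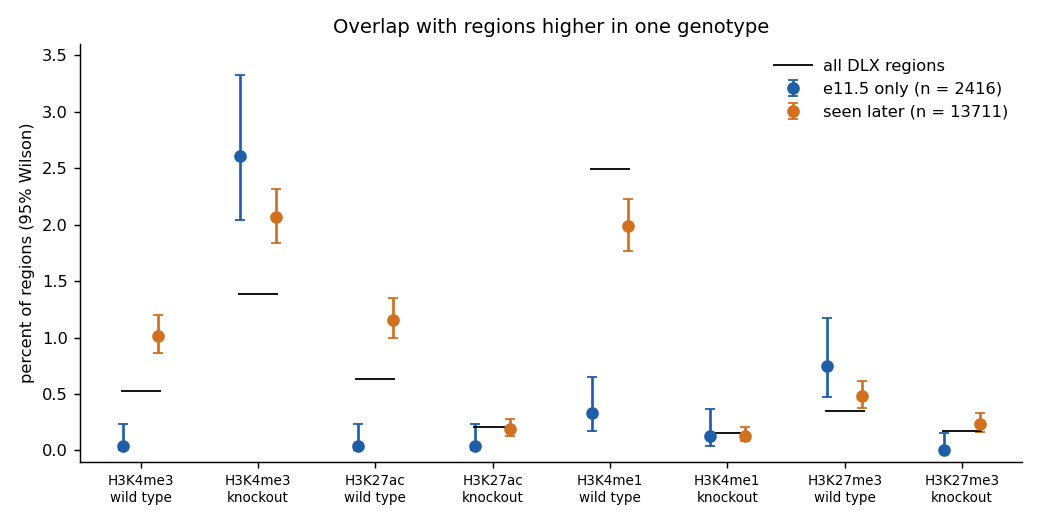
Percent of e11.5-only regions (blue) and of regions seen later (orange) that overlap a region of the authors' comparison higher in wild type or in knockout, with 95% Wilson intervals, and the percent over all 47958 DLX regions (black bars). H3K27ac higher in wild type stands at 0.0414% and 1.16%, and H3K4me3 higher in knockout at 2.61% and 2.06%.

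The strength of the marks moved alike in both groups. Over e11.5-only regions with a wild-type H3K27ac peak, the median log2 of knockout over wild-type fold was −0.09, against −0.08 in regions seen later. For H3K4me1 the medians were 0.01 and 0.02, for H3K4me3 0.12 and 0.11, and for H3K27me3 −0.10 and −0.09. Of 1128 e11.5-only regions with wild-type H3K27ac, 1001 also had a knockout peak at the same threshold. Of 1780 with wild-type H3K4me3, 1750 did.

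The e11.5-only regions were spread over all chromosomes, at 12.3% of the e11.5 regions on chromosome 13 to 18.3% (31 of 169) on X, and most stood alone. Another e11.5-only region lay within 10000 bp of 375 of them. The largest group was 12 regions at chr1:90110381-90144604, with folds from 3.17 to 5.03, of which 5 had a DLX1 peak, 2 a DLX2 peak and 7 a DLX5 peak. A second group of 7 lay at chr7:54853751-54863542. None of the 12 and none of the 7 carried any of the 4 wild-type marks, and no e11.5 region seen later lay within either span. A group of 5 DLX5-alone regions at chr5:123582387-123589398 had H3K27ac, H3K4me1 and H3K4me3 at all 5. Of 4 regions at chr4:3007483-3017469, all had H3K27me3 and none had another mark.

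Where 2 factors shared an e11.5-only region, their summits lay farther apart than in regions seen later for DLX1 and DLX5, at a median of 99.5 bp (n = 54) against 60 bp. For DLX2 and DLX5 the medians were 58 bp (n = 56) and 51 bp, and for DLX1 and DLX2 76 bp (n = 19) and 41 bp. Ranked by the lower of both folds, the strongest shared site of DLX2 and DLX5 was chr11:89370102-89370475, with folds of 6.60 and 7.92. For DLX1 and DLX5 the highest lower fold, 4.44, was reached at chr1:90113222-90113707, with 5.03 and 4.44, inside the largest group. It was reached as well at chr11:87975497-87975849, with 4.79 and 4.44, in a wild-type H3K4me3 peak of fold 12.2.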

How the data were processed

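Each DLX ChIP sample has a deposited list of peaks called by the authors. The deposited lists hold, for each peak, a fold enrichment, the −log10 of its p and q and a summit. Build mm9, MACS2, deepTools, SAMtools, Trim Galore and BWA 0.7.16a are named for ChIP per the submitters' processing notes, and STAR 2.4.2a for RNA. The labels do not tell which input each list used or whether lists stand for merged libraries. The deposited fold values up to 20 lie on whole steps of 1 number per list, with a constant offset in the DLX2 list of e13.5. The deposited lists of the authors' comparison of genotypes carry a score per region, a log10 likelihood ratio. Condition 1 was read as wild type: 80.8% to 97.6% of its regions had their stronger peak in wild type. RNA values are read counts deposited by the authors without normalization, scaled here to CPM over totals of 14.4 to 117 M. Per the labels, sheared fragments were 300 to 1000 bp for DLX and reads were 50 nt.

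Intervals were merged and intersected in Python 3.11.15 with numpy 2.4.6, pandas 2.3.3 and scipy 1.17.1, on chromosomes 1 to 19 and X, with 1 bp as overlap. Shares have Wilson and differences Newcombe intervals at 95%. Weighting used factor class by 4 groups, cut at the quartiles of the highest e11.5 fold in each class, with a normal interval. Since folds lie on steps, the groups are not equal in size. The weighting was tried on simulated data with 1 factor class and continuous folds, which does not cover stepped folds in several classes. No sequence or nearest gene of the regions is given, since no mm9 genome or annotation was used here. The members and lists were chosen with earlier results of these data known. Regions are named by rule: the 2 strongest by factor class, by mark and by each genotype list, and 2 on each side of the overlap limit, leaving out chromosome 18. Other positions were chosen after their values were seen. ChIP depth is unknown.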

Additional observations from a re-analysis of the deposited data

Results flagged for a closer look

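Of 20 marker genes in the 4 libraries of each genotype, Gad1, the gene of a GABA-synthesizing enzyme, had 1 value far from the others. One knockout library stood at 65.0 CPM, against 42.4, 42.8 and 43.5 CPM in the other knockout libraries. Chance sets apart about 1 in 20 such groups, and no result on the DLX regions rests on this gene.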

How the results depend on the processing

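No paired analysis was possible because no result comes from a test: the RNA groups share replicate numbers, but their values serve only as a check of the tissue. With 1 library per ChIP condition, no replicate could be left out, and each e11.5 list was left out in place of that. The statements that held their direction in all settings run were these: H3K4me3 with H3K27me3 and without H3K27ac was more frequent at e11.5-only regions at equal factor class and fold, and H3K27ac higher in wild type was less frequent. The intervals spanned 0 with e11.5 peaks at −log10 q of at least 10. The number of e11.5-only regions was 41 at that threshold, 6254 without the e16.5 lists and 630 without the e11.5 DLX5 list. The share with H3K4me3 was 29.3% with e11.5 peaks at −log10 q of at least 10, 66.9% when a later peak within 500 bp counted, 76.3% at an overlap of at least 50%, 83.8% without the e16.5 lists, 71.1% without the e13.5 lists, 80.2% with all lists cut to the 2951 peaks of the shortest, 77.1% without the e11.5 DLX2 list, 60.5% without the e11.5 DLX5 list, 92.4% with all deposited histone peaks and 67.7% with histone peaks at −log10 q of at least 10.

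The H3K4me3 difference at equal class and fold (−10.5 points) turned to 4.59 points without the e16.5 lists, to 4.53 with lists of equal length and to 5.10 without strata. It was −49.4 at the e11.5 −log10 q threshold of 10, −17.4 at 500 bp, −7.73 at 50% overlap, −3.42 without the e11.5 DLX2 list, −5.53 with all histone peaks and −8.07 in strata of width. The combination of H3K4me3 and H3K27me3 without H3K27ac (7.24 points) gave 9.42, 8.78, 3.67 and 2.06 points at the e11.5 threshold, at 500 bp, without e16.5 and with lists of equal length. It gave 4.84 without the e11.5 DLX5 list, 3.5002 with all histone peaks and 4.62 with histone peaks at −log10 q of at least 10. The H3K27ac difference from the genotype lists (−1.12 points) gave −2.61 at the e11.5 threshold, −1.36 without e16.5, −2.66 at equal length, −1.53 without the e11.5 DLX5 list and −0.642 at a log10 likelihood ratio of at least 5.

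Without e16.5 and at equal length, the matched differences also turned for H3K27ac (3.78 and 4.25), H3K27me3 (6.48 and 7.49) and H3K4me1 (−5.85 and −1.63). H3K27me3 turned further to 3.64 without the e11.5 DLX2 list, 3.76 with all histone peaks, 4.55 with histone peaks at −log10 q of at least 10, 0.868 with summits inside the peak and 7.29 without strata. H3K4me1 turned to −18.7 at the e11.5 threshold, −0.752 without the e11.5 DLX2 list, −1.16 with all histone peaks and −2.35 without strata. The difference in regions with none of the 4 marks turned to −0.156 at equal length. The unadjusted H3K4me3 difference (5.10) turned to −25.9 at the e11.5 threshold, −2.73 at 500 bp, −1.89 without the e11.5 DLX2 list and −4.14 with all histone peaks. The cause of these changes was not tested. All of these alternatives were listed with the tests. The depth of the ChIP libraries is unknown, so a later peak below detection and a lost site cannot be told apart.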
